A study of Mus musculus with 6 samples.

Results

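The EphB receptors and their ephrin-B ligands were examined in mouse corneal epithelium, the stratified cell layer on the outer face of the eye. The members were chosen by name as the 5 EphB receptor genes (Ephb1, Ephb2, Ephb3, Ephb4 and Ephb6) and the 3 ephrin-B genes (Efnb1, Efnb2 and Efnb3) of the mouse. All 8 were found among the 25006 genes of the count table. Of these, 7 passed the filter on low counts that left 12847 genes for testing, and Ephb1 did not. Epithelial sheets of 3 wild type samples and of 3 samples labelled EphA2 null (EphA2-/- in the series text) were isolated, total RNA was extracted and RNA sequencing was performed. EphA2 is a receptor of the sister class, which binds mainly ephrin-A ligands. The labels give no strain, age, sex, treatment or kind of null allele, and leave unsaid if each sample is a different animal, so p-values measure only how these samples vary, and that variation may be technical.

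Eph receptors are receptor tyrosine kinases that are activated by ephrins on the surface of a neighbouring cell. Ephrin-B proteins span the membrane and signal into their own cell as well, so contact between an EphB cell and an ephrin-B cell sends a forward signal through the receptor and a reverse signal through the ligand. In epithelia these pairs are known for keeping cell populations apart and for placing cells within a layer, and EphB4 and ephrin-B2 are known for marking veins and arteries. EphB6 lacks kinase activity. The classes are not fully separate, since EphA4 also binds ephrin-B ligands.

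Total counts per library ran from 15308013 to 27586942. The sample titles carry a number whose meaning is not stated. It is low in wild type 1 and 2, which share a number, and in null-labelled library 1, and high in wild type 3 and in null-labelled libraries 2 and 3, which share another. A principal component analysis put 61.2% of the variance on its first component, along which the libraries with lower and higher numbers stood apart and the genotypes did not. Because genotype and number range are unevenly mixed, each member is given by genotype, by range and by genotype with the range as a term. The RNA of the targeted gene Epha2 was not lower in the null-labelled libraries as a group. Its level was 298, 253 and 563 CPM (counts scaled to a common library size with TMM factors) in wild type libraries 1, 2 and 3, against 285, 653 and 578 CPM in null-labelled libraries 1, 2 and 3. Whether the null allele leaves RNA or the labels are off was not tested. The genotype is therefore given as labelled, and every genotype direction rests on those labels.

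Markers of the labelled tissue were abundant. The 10 corneal epithelial markers summed to between 58802 and 84939 CPM per library, led by Krt5, Aldh3a1 and Krt12. All 10 vessel markers together summed to between 2.41 and 7.02 CPM, and Kdr, Emcn, Erg and Lyve1 among them had 0 counts in every library. This bears on Ephb4 and Efnb2, which are also vessel genes. All 10 stromal keratocyte markers together summed to between 10.8 and 17.5 CPM, led by Pdgfra, and Kera and Lum among them had 0 counts in every library. In bulk RNA of this kind, fewer cells of a type and less RNA per cell cannot be told apart.

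The ephrin-B ligands end in a conserved tail that takes part in reverse signalling, and the 3 ligand genes are shown by the last 60 bases of their coding sequence, stop codon included, because this is a stretch where they are much alike. The sequences are from GENCODE M21, 5′ to 3′, with capitals at the bases identical in all 3.
Efnb1: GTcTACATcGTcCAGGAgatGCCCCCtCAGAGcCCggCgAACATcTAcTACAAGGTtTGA
Efnb2: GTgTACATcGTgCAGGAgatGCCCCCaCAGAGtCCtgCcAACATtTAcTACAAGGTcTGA
Efnb3: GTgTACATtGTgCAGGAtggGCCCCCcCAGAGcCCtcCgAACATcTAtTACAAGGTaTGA
In these ends 46 of 60 bases were identical in all 3 genes. Efnb1 and Efnb2 matched at 86.7% of the positions, and Efnb3 matched either of them at 81.7%. Over the whole aligned coding sequence the ligands matched pairwise at 59.7% to 64.3%. The receptors matched at 59.8% (Ephb3 and Ephb6) to 73.2% (Ephb1 and Ephb2), and Ephb6, the kinase-dead member, was the most distant, at 59.8% to 61.2% from the others. No stretch of 50 bases of Ephb4, Ephb6 or any ligand transcript occurred in another gene. Such stretches made up 1.55% of Ephb1, 0.221% of Ephb2 and 0.118% of Ephb3.

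The genes lie apart on GRCm38. Ephb1 is on chromosome 9 (101922128 to 102354693), Ephb2 on chromosome 4 (136647539 to 136835988), Ephb3 on chromosome 16 (21204755 to 21223305), Ephb4 on chromosome 5 (137350109 to 137378669) and Ephb6 on chromosome 6 (41605482 to 41620509). Efnb1 is on chromosome X (99136130 to 99148991), Efnb2 on chromosome 8 (8617434 to 8661242) and Efnb3 on chromosome 11 (69554092 to 69560205). Only Ephb2 shares a chromosome with Epha2, and 4.47 Mb lie between them. The X-linked position of Efnb1 would matter if the sexes of the samples differed. The Y-linked gene Ddx3y was at 94.0 to 155 CPM in the 6 libraries, and Xist, the RNA of the inactive X, had 1 to 9 counts in each. By these genes all 6 libraries read as male.

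Promoters were compared because most members moved together across the libraries, as described below. RefSeq promoters on GRCm38.p6, from 250 bases before to 50 after the start, were matched for 7 of the 8 genes. The promoters of Ephb3, the most abundant receptor, and of Efnb2, the ligand with the largest difference between libraries, are shown on their own strands with every GC box (GGGCGG, searched on both strands) in capitals.
Ephb3, chr16:21204545-21204844, plus strand: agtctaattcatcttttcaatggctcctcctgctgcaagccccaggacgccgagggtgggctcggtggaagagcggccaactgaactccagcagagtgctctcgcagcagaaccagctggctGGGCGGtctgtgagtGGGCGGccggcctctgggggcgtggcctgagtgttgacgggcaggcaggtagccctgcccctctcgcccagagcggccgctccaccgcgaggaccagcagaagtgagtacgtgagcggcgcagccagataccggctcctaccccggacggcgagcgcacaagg
Efnb2, chr8:8661193-8661492, minus strand: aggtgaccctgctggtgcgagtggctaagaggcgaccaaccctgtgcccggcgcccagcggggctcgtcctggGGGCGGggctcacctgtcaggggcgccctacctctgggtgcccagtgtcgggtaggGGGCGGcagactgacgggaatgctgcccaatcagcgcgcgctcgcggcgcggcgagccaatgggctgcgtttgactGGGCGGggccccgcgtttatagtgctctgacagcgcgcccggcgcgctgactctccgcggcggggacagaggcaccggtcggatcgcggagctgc
The GC box occurred 2 times in the Ephb3 window, 4 times in Ephb4, 5 times in Ephb6 and 3 times in Efnb2, and not in Ephb1, Ephb2 or Efnb1. It occurs in 35.7% of the 32851 mouse promoters of this length. The members carried 14 to 35 CpG dinucleotides, against a median of 7 over all promoters. Efnb2 had the most, above 93.0% of promoters, while Ephb1, Ephb4 and Efnb1 had 14 each, above 63.7% of promoters. The TATA box letters TATAAA, searched on both strands and found in 13.6% of promoters, occurred only in Efnb2. There they lay on the strand opposite to the one shown. The E-box CACGTG (7.15% of promoters), the AP-1 site TGACTCA (5.2%) and the TCF/LEF core CTTTGA (16.0%), searched on both strands, were in none of the 7 windows.

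Scaled by length, Ephb3 was the main EphB receptor RNA of these corneal epithelial samples and Efnb1 the main ephrin-B RNA. Before scaling by length, Efnb2 had 9771 counts in total and Efnb1 had 9555. In CPM per kilobase of merged exon, the mean level over the 6 libraries was 23.7 ± 8.07 (SD) for Ephb3 and 22.4 ± 8.03 for Efnb1. Among the 12847 tested genes these stood at percentiles 86.0 and 85.1 of the per-length level. Then followed Efnb2 at 11.5 ± 5.08, Ephb6 at 8.70 ± 2.60, Ephb4 at 6.23 ± 2.11, Ephb2 at 0.923 ± 0.168 and Efnb3 at 0.253 ± 0.104. Ephb1 had 1 count in wild type 2, 1 count in null-labelled library 3 and 0 in the other 4 libraries, below the level of 0.112 to 0.203 CPM that 3 counts would give. Ephb1, a receptor best known from neurons, and Efnb3, a ligand best known from the nervous system, were thus the lowest of their families.

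The order within this ranking was not equally firm. Ephb3 exceeded Efnb1 in 5 of 6 libraries, by a ratio of 1.06 ± 0.0519, so this pair is close to level on merged exons. Efnb2 exceeded Ephb6 in 4 of 6 (ratio 1.31 ± 0.416), a pair that does not differ beyond the spread on this scale. Efnb1 exceeded Efnb2 (2.04 ± 0.379), Ephb6 exceeded Ephb4 (1.43 ± 0.209), Ephb4 exceeded Ephb2 (6.61 ± 1.22) and Ephb2 exceeded Efnb3 (4.11 ± 1.57) in every library. These ratios depend on the length used. Per kilobase of the longest transcript, Ephb3 (mean 33.1) exceeded Efnb1 (23.8) in 6 of 6 libraries and Efnb2 (16.5) exceeded Ephb6 (8.73) in 6 of 6, while Ephb6 exceeded Ephb4 (6.66) in 5 of 6.

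**Figure D1:**
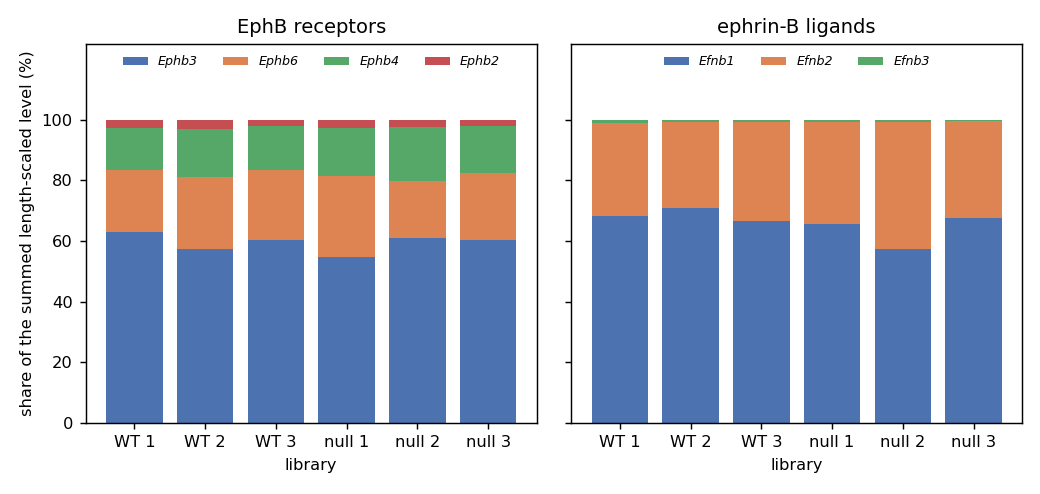
Stacked bars give each receptor's share (%) of the summed EphB level and each ligand's share of the summed ephrin-B level, per kilobase, in each of the 6 libraries (Ephb1, with at most 1 count, is not visible). Ephb3 takes between 54.8% and 63.1% of the receptor sum and Efnb1 between 57.2% and 71.0% of the ligand sum.

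The order of the shares within each family, on merged exons, was the same in every library. Of the tested members only Ephb2 had a share that did not overlap between the title number ranges, with means of 2.76% in the lower and 2.10% in the higher numbers. Ephb3 took 59.5% ± 2.93 of the summed receptor level (SD, n = 6 libraries), Ephb6 22.4% ± 2.70, Ephb4 15.7% ± 1.34 and Ephb2 2.43% ± 0.381. Among the ligands, Efnb1 took 66.1% ± 4.71, Efnb2 33.2% ± 4.65 and Efnb3 0.773% ± 0.252. The ligand shares ranged more widely than those of the receptors, from 57.2% to 71.0% for Efnb1 and from 28.3% to 41.9% for Efnb2, which was highest in null-labelled library 2. Scaled by the longest transcript instead of merged exons, the mean shares became 66.4% for Ephb3, 17.9% for Ephb6 and 13.4% for Ephb4, and 59.3% for Efnb1 and 40.1% for Efnb2, with the same order. On that scale Efnb1 and Efnb2 were nearly level in null-labelled library 2, at 49.9% and 49.4%. The summed per-kilobase level of the ligands relative to that of the receptors was 0.874, 0.791 and 0.847 in wild type libraries 1, 2 and 3, against 0.766, 0.937 and 0.902 in null-labelled libraries 1, 2 and 3. It overlapped between the genotypes, and its lowest and its highest value both fell among the null-labelled libraries.

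**Figure D2:**
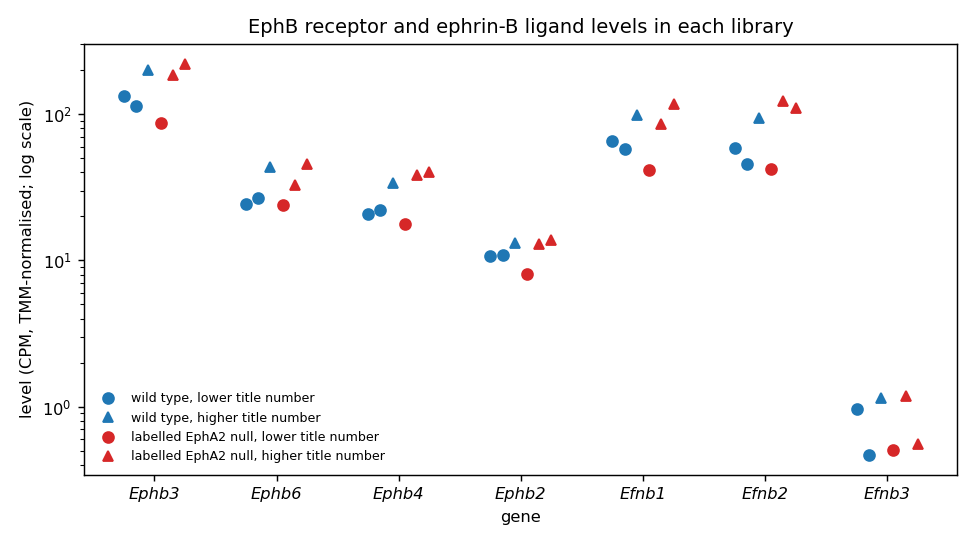
Points give the level of each of the 7 tested genes in CPM (log scale) in each library, by genotype and by lower or higher title number. For Ephb2, Ephb3, Ephb4, Ephb6, Efnb1 and Efnb2 every higher-number library lies above every lower-number library, while the genotypes overlap.

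No EphB or ephrin-B gene differed by genotype at an adjusted p under 0.05. Of the 7 tested members 0 were called by edgeR's quasi-likelihood test, beside 0.00778% of all tested genes, and 0 had an unadjusted p under 0.05, beside 152 of 12847 genes. DESeq2 called 5 genes over the table and 0 members. In no member did the genotypes separate without overlap, beside 3.73% of all tested genes. The members' median log2 fold change of null-labelled over wild type was 0.13, and that of all tested genes was 0.01.

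Among the receptors, Ephb3, a partner of all 3 ligands that is known for placing epithelial cells in the intestine, had 134, 113 and 201 CPM in the wild type libraries, numbered 1, 2 and 3, against 86.6, 186 and 222 CPM in null-labelled libraries 1, 2 and 3. Its lowest and its highest value were both null-labelled. The log2 fold change was 0.14 ± 0.36 (SE; 95% interval −0.71 to 0.99). Ephb6 had 24.4, 26.6 and 43.8 CPM in wild type libraries against 23.8, 32.7 and 45.8 CPM in the null-labelled libraries, with a log2 fold change of 0.11 ± 0.31 (interval −0.61 to 0.83). For this kinase-dead receptor too the groups overlapped over most of their range.

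Ephb4, the receptor that prefers ephrin-B2, had 20.9, 22.1 and 34.0 CPM in wild type libraries against 17.7, 38.2 and 40.4 CPM in the null-labelled libraries, where the lowest value of all was also found. Its log2 fold change was 0.32 ± 0.34 (interval −0.48 to 1.12). Ephb2, a receptor with high affinity for ephrin-B ligands that also binds ephrin-A5, had 10.8, 10.9 and 13.2 CPM in wild type libraries against 8.12, 13.0 and 13.7 CPM in the null-labelled libraries. The genotype means of Ephb2 were the closest of the 4 receptors, at a log2 fold change of −0.00 ± 0.23.

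Among the ligands, Efnb1, the X-linked ephrin, had 65.8, 57.7 and 98.0 CPM in wild type libraries against 41.2, 85.1 and 116 CPM in the null-labelled libraries. The log2 fold change was 0.13 ± 0.38 (interval −0.75 to 1.01), and again the extremes were both null-labelled. Efnb2, the arterial ephrin, had 59.0, 45.7 and 94.5 CPM in wild type libraries against 41.9, 124 and 109 CPM in the null-labelled libraries. Here 2 null-labelled libraries lay above every wild type library and the other lay below every one, and the log2 fold change was 0.47 ± 0.43 (interval −0.53 to 1.47). Efnb3 had 20, 8 and 17 counts in wild type libraries against 11, 24 and 15 in the null-labelled libraries, which is 0.466 to 1.18 CPM. At this depth the counts overlapped, and the log2 fold change was −0.21 ± 0.49. Every member had an adjusted p of 0.9996 by edgeR, and the intervals leave room for differences of about the size of those between the title number ranges.

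With a term for the range of title numbers, the genotype estimate of all 7 members lay below 0, and none was called. By edgeR the log2 fold change became −0.24 ± 0.15 for Ephb3, −0.27 ± 0.18 for Efnb1, −0.20 ± 0.14 for Ephb2, −0.13 ± 0.14 for Ephb6 and −0.47 ± 0.46 for Efnb3. Ephb4 (−0.03 ± 0.13) and Efnb2 (−0.00 ± 0.16) lay at 0. All adjusted p-values were 0.9996. Of all tested genes 0.00778% were called in this fit and 497 had an unadjusted p under 0.05, with 0 of the members among them. For Ephb3, Ephb4, Ephb6, Efnb1 and Efnb2 the sign of the genotype estimate thus depended on whether the range was in the model.

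The genotype estimate changed sign between the 2 ranges for Ephb3, Efnb1, Ephb2, Ephb4 and Efnb2, but not for Ephb6 or Efnb3. The interaction test, given below, called no member as different between the ranges. In each range all libraries of a genotype carried the same title number, so genotype and number cannot be told apart there. Within the lower numbers, where null-labelled library 1 stood against wild type 1 and 2, it was −0.52 for Ephb3, −0.58 for Efnb1, −0.42 for Ephb2, −0.28 for Ephb4, −0.32 for Efnb2 and −0.10 for Ephb6 on the log2 scale. Within the higher numbers, where null-labelled libraries 2 and 3 stood against wild type 3, it was 0.02, 0.04, 0.02, 0.21, 0.30 and −0.15 for the same genes. Efnb3 was at −0.52 and −0.43. All 6 others were below 0 in the lower range, where the null-labelled side is the single library that was lowest for 6 of the 7 tested members, as it was for 25.8% of all tested genes. By the interaction test 0 of 12847 genes (0%) and therefore 0 members were called, with 605 genes at an unadjusted p under 0.05. Efnb2 (difference 0.63 ± 0.25) and Ephb3 (0.54 ± 0.23) were among those 605, each with an adjusted p of 0.999 by edgeR, and the model left 2 residual degrees of freedom.

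**Figure D3:**
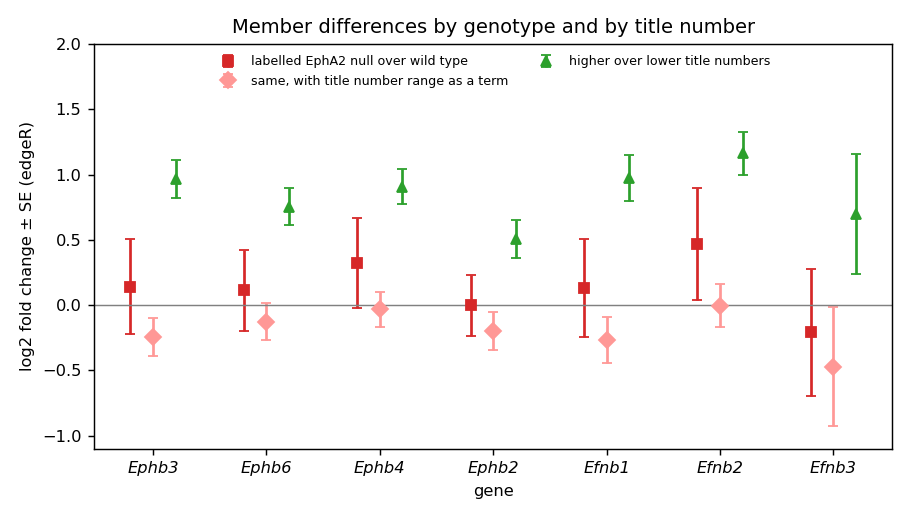
Points with error bars (SE) give the log2 fold change of the 7 tested genes by edgeR for genotype alone, for genotype beside a term for the range, and for the higher over the lower title numbers. Genotype estimates lie within 2 SE of 0, while 6 of the 7 title number estimates lie at or above 0.50 and were called.

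The family differed between the title number ranges. With genotype as a term, 6 of the 7 tested members were called higher in the higher numbers by edgeR, beside 24.6% of all tested genes called higher and 20.1% called lower. In the same 6 members every higher-number library lay above every lower-number library, beside 30.1% of all tested genes. The members' median log2 fold change was 0.91, against −0.01 for all tested genes, of which the 90th percentile was 0.76. That the libraries separate by this number was known when the family was chosen, so these counts describe the family and are no independent evidence of the separation. Libraries that share a title number were fitted as independent samples and were not summed for this comparison. The p-values by title number may therefore be too small.

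Efnb2 had the largest difference of the family. Its mean level was 48.9 ± 8.98 CPM in the 3 lower-number libraries and 109 ± 14.7 CPM in the 3 higher-number libraries, a 2.24-fold difference (log2 1.16 ± 0.17 SE, edgeR adjusted p = 0.00228). Efnb1 went from 54.9 ± 12.5 to 99.9 ± 15.8 CPM (log2 0.98 ± 0.18, edgeR adjusted p = 0.00402). For both ligands the difference between the means exceeded the SD within either range, and the ranges did not overlap.

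Of the receptors, Ephb3 went from 111 ± 23.8 to 203 ± 17.9 CPM (log2 0.97 ± 0.15, edgeR adjusted p = 0.00252). Ephb4 went from 20.2 ± 2.31 to 37.5 ± 3.22 CPM (log2 0.91 ± 0.13, edgeR adjusted p = 0.00239). Ephb6 went from 24.9 ± 1.51 to 40.8 ± 7.03 CPM (log2 0.75 ± 0.14, edgeR adjusted p = 0.00471), and its higher-number libraries were the most spread of the receptors relative to their mean. Ephb2 rose least, from 9.94 ± 1.58 to 13.3 ± 0.343 CPM (log2 0.50 ± 0.15, edgeR adjusted p = 0.0226). Efnb3 was not called, at 0.645 ± 0.278 and 0.963 ± 0.349 CPM (log2 0.70 ± 0.46, edgeR adjusted p = 0.241), and its ranges overlapped.

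With null-labelled library 1 left out, the remaining null-labelled libraries all carried higher numbers. With genotype as a term, the title number estimate then compared wild type 3 alone with wild type 1 and 2. A call lost there cannot be read as a smaller difference between all higher and all lower numbers. Some calls were lost in this fit, which lacks null-labelled library 1. Without it 3 members were called higher, Ephb3, Ephb4 and Efnb2, beside 6.53% of 13024 genes. By edgeR Ephb2 then stood at 0.28, Ephb6 at 0.78 and Efnb1 at 0.66 on the log2 scale, each still above 0. Ephb2 was also not called without wild type 2 (0.51, adjusted p = 0.0619) or without normalisation factors (0.39, adjusted p = 0.0608). Leaving out the factors moved the median of all genes to −0.13 and turned the balance of calls from 3154 higher and 2586 lower to 2449 higher and 3667 lower.

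**Figure D4:**
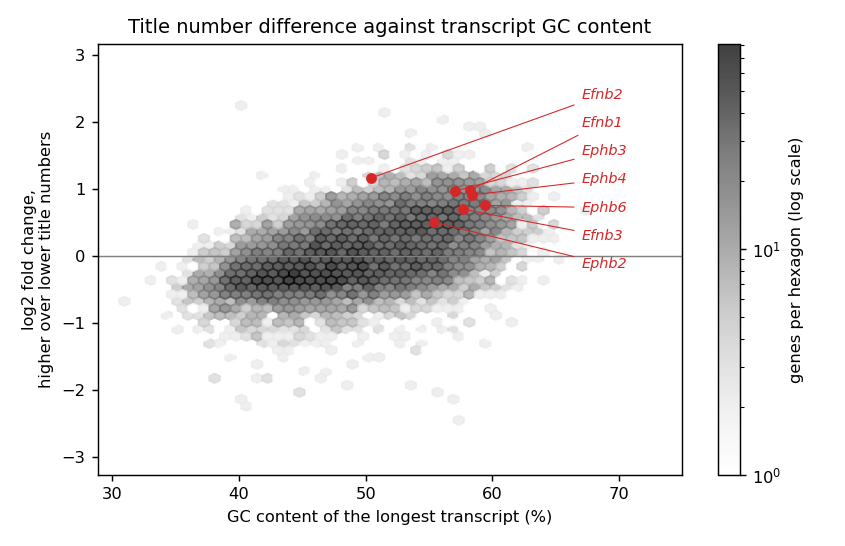
Hexagons count the 12841 tested genes with a transcript in the annotation by transcript GC content (%) and log2 fold change of higher over lower title numbers, and red points are the 7 tested members (19 genes beyond 3 or −3 are not drawn). The difference climbs with GC content, and Efnb2 lies above the bulk of genes of its GC content, while Ephb2 and Efnb3 lie within it.

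The title number difference moved with the base composition of transcripts. Across 12841 genes its Spearman correlation with transcript GC content was 0.482 and with transcript length 0.268, as a description over genes that are not independent. The median log2 fold change climbed from −0.33 to 0.43 between the lowest and the highest of 5 equal bins of GC content, and the share called higher from 4.55% to 46.1%. Most members are GC-rich. Ephb3 (57.0%), Ephb4 (58.4%), Ephb6 (59.4%), Efnb1 (58.2%) and Efnb3 (57.7%) fall in the highest bin, and Ephb2 (55.3%) in the next. Efnb2 (50.4%) falls in the middle bin, where the median was 0.03 and 24.5% of genes were called higher.

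With offsets per library that remove the trend on GC content and length, chosen after seeing the data, 4 members were called higher, beside 14.1% of all tested genes. By edgeR Efnb2 then stood at 0.92 ± 0.16 (adjusted p = 0.00866), Efnb1 at 0.54 ± 0.13 (adjusted p = 0.0195), Ephb3 at 0.44 ± 0.10 (adjusted p = 0.0175) and Ephb4 at 0.36 ± 0.11 (adjusted p = 0.0361). Ephb6 (0.23, adjusted p = 0.215), Efnb3 (0.31, adjusted p = 0.654) and Ephb2 (−0.11, adjusted p = 0.558) were not called by edgeR. Efnb2 kept the most of its difference, and the direction of Ephb2 depended on this setting.

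Some markers of other cells differed by title number too. Beside the counts that follow stand 24.6% of all tested genes called higher and 20.1% called lower. By edgeR 8 of the 9 tested leukocyte markers were lower in the higher numbers (median log2 fold change −2.33), although the sum of all 14, most of it Itgam, was 292 to 336 CPM in the lower and 281 to 324 CPM in the higher numbers. Of 7 tested conjunctival markers 2 were called lower, with the goblet cell mucin Muc5ac at −4.95. Muc5ac was uneven within the lower numbers, at 38.5 CPM in wild type 1, 5.24 in wild type 2 and 58.8 in null-labelled library 1. In the higher numbers it was at 0.675 to 2.21 CPM. The 9 conjunctival markers summed to 4919 to 6319 CPM in the lower and 3299 to 6028 CPM in the higher numbers. Of the 10 corneal epithelial markers 5 were called higher, and their sum did not overlap between the ranges (58802 to 66938 CPM against 77158 to 84939 CPM). The vessel markers summed to 2.41 to 3.03 CPM in the lower and 4.92 to 7.02 CPM in the higher numbers, and Tie1, the only one tested, was called higher (1.07). Of 2 tested stromal keratocyte markers Vim was called lower (−1.94), with all 10 summing to 13.4 to 14.6 CPM in the lower and 10.8 to 17.5 CPM in the higher numbers. Of 2 tested corneal endothelial markers Slc4a11 was called higher (1.04), with all 4 summing to 14.1 to 24.8 CPM and 19.9 to 41.1 CPM, and Cdh2 at 0 in every library. The part of the other cells and of base composition in the members' difference was not tested.

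Genes that act with the family were followed in 5 lists. No gene of any list was called by genotype by edgeR, with or without a term for the range, and the list medians for genotype alone were between −0.00 and 0.17. With the term they were −0.12 for the EphA and ephrin-A genes, −0.04 for forward and −0.08 for reverse signalling partners, 0.02 for shedding and turnover and −0.11 for Wnt targets, so the sign of 3 of these turned with the model. The 2 genes with the smallest p for genotype in each list were Adam8 (−0.48), a metalloprotease, Psen2 (0.37), a subunit of gamma-secretase, Efna4 (−0.22), Epha2 (0.44), Sdc2 (−0.29), Pak1 (0.22), Pard3 (0.27), Stat3 (0.30), the ubiquitin ligase gene Znrf3 (0.20) and Myc (0.19), given as log2 fold changes that did not pass. With the range as a term 4 listed genes had an unadjusted p under 0.05, Efna4 (−0.31), Efna1 (−0.29), Ccnd1 (−0.23) and Rhbdl2 (0.30), and none was called.

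By title number, with the direction given as higher over lower numbers and tests by edgeR, the sister class of EphA receptors and ephrin-A ligands had 6 of 9 tested genes higher and 0 lower (median log2 fold change 0.49). Beside this and the counts that follow stand the 24.6% of all tested genes called higher and the 20.1% called lower. Efna2 (1.96), Epha2 (1.07), Efna1 (1.0) and Efna5 (0.75) rose most. The Efna2 value rests on low counts, 4 to 30 per library. Epha4, the receptor that bridges the classes, was at 185 to 287 CPM with a log2 fold change of 0.08 that was not called, and is named after its values were seen.

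Forward signalling partners of EphB receptors, the adaptors, kinases and exchange factors that act below the receptor, had 15 of 31 tested genes higher and 4 lower (median 0.27). Src (0.98), Tiam1 (0.85), an exchange factor for Rac, and Abl1 (0.79) rose, and the adaptor gene Dok1 fell (−1.1). Reverse signalling partners of ephrin-B had 13 of 19 higher and 1 lower (median 0.70). Git1 (1.13), Src, Pard6b (0.92), a polarity protein that ephrin-B1 can bind, and Stat3 (0.91) led, and the lower gene was Sdcbp (−0.48), which encodes syntenin, a PDZ protein that binds the ephrin-B tail shown above. Sdcbp was singled out after its values were seen.

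Genes of Eph and ephrin shedding and turnover had 8 of 18 tested genes higher and 1 lower (median 0.29). The phosphatase genes Ptpn1 (0.86) and Ptprj (0.61) and the ubiquitin ligase genes Nedd4l (0.70) and Cbl (0.61) rose, and the lower gene was the sheddase gene Adam17 (−0.39), named after its values were seen. Wnt and beta-catenin targets, a class to which Ephb2 and Ephb3 belong in the intestine, had 6 of 10 tested genes higher and 0 lower (median 0.52), led by Axin2 (0.95), Sox9 (0.89), Rnf43 (0.72) and Ccnd1 (0.57). All tested genes had a median of −0.01 in this comparison. The lists were chosen with earlier results known, so these counts are descriptions.

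The called members followed each other across the 6 libraries. Pearson's correlation of log2 CPM, given as a description over libraries that share the separation by title number, ran from 0.81 (Ephb6 with Efnb2) to 0.99 (Ephb3 with Efnb1) among the 6 called members. Efnb3 had 0.28 to 0.62 with the other 6. Among 11996 genes averaging 1 CPM or more, the patterns most like Ephb3 were Zfp574, Wdr13 and Ube2o, and those most like Efnb1 were Parp1, Timm44 and Spred2. Those most like Efnb2 were Ubl7, Mast2 and Myo10, and those most like Ephb4 were Creb3l2, Mfn1 and Rassf3. Ephb6 was followed most closely by Dock6, Map3k21 and Chd7, and Ephb2 by B3gat3, Mex3d and Pabpc4. The correlation was at least 0.99 for all 18 genes, but between 1298 (Ephb6) and 2402 (Ephb3) genes had a correlation above 0.9 with the member, so the likeness is not particular to those named.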

How the data were processed

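The deposited values are raw counts per gene, whole numbers per Ensembl identifier for 6 libraries. The aligner, counter, strand setting, build and annotation were not given in the sources used here, so reads of overlapping antisense genes cannot be told apart: Gm26846 overlaps Ephb1 by 152 bases and Zan overlaps Ephb4 by 33. Names, positions and lengths came from GENCODE M21 on GRCm38 (24942 of 25006 identifiers), not checked against the annotation used for counting. Columns were matched to samples by name, and 0 columns belonged to other samples. Every pair of libraries differed beyond counting noise (chi-square per degree of freedom at least 11.1), so all 6 were kept. Replicates are numbered in accession order and pair nothing.

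All genes passing filterByExpr were fitted with edgeR 4.0.16 (TMM, glmQLFit, glmQLFTest) in R 4.3.3, and a gene was called when its adjusted p (Benjamini-Hochberg) was under 0.05. DESeq2 1.42.0 and limma 3.58.1 (voom) were alternatives, and the edgeR step was tested on simulated data. Log2 CPM for correlations used a prior count of 2. Each SE was taken as the log2 fold change divided by the square root of F.

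Named were all 8 members, for Ephb3, Efnb1 and each called member the 3 genes with the most alike pattern, and from each list up to 4 called genes with the largest change or up to 2 with the smallest p. The members and lists were chosen with earlier results of these data known.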

Additional observations from a re-analysis of the deposited data

How the results depend on the processing

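No member was called by genotype under any alternative run, with or without the title number range as a term. Over all tested genes, edgeR called 1 by genotype, against 5 with DESeq2 and 0 with samples of one title number summed. With the range as a term it called 1, against 17 with DESeq2, 68 with no filter on low counts and 1 to 7 with each library left out. By title number it called 5740, against 3398 with the GC content and length offsets and 1103 (without null-labelled library 1) to 5803 with each library left out; without wild type 2 there were 3549 and without wild type 3 there were 3702. Without null-labelled library 1 the title number estimate compared wild type libraries only, and without wild type 3 it compared null-labelled libraries only. The member calls lost are given with the results, and the cause was not tested.

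Genotype signs turned as follows (log2 fold changes). With samples of one title number summed, Ephb3 stood at −0.16, Ephb6 at −0.12 and Efnb1 at −0.16, and with DESeq2 Ephb2 at 0.00133. With each library left out, Ephb2 ran from −0.14 to 0.20, Ephb3 from −0.13 to 0.45, Ephb6 from −0.16 to 0.41, Efnb1 from −0.23 to 0.45 and Efnb3 from −0.68 to 0.0181. With the range as a term and each library left out, Ephb2 ran from −0.42 to 0.0164, Ephb3 from −0.52 to 0.0233, Ephb4 from −0.29 to 0.21, Efnb1 from −0.59 to 0.0420 and Efnb2 from −0.33 to 0.30. Efnb2 also stood at 0.00658 with voom and 0.0261 with the GC content and length offsets, which put Ephb4 at 0.0701. By title number, the only change of sign was Ephb2 at −0.11 with those offsets. No paired analysis was possible because the labels give no replicate numbers that pair the groups; the title number range was fitted as a term instead. Low counts limit Efnb3 (8 to 24 per library) and Ephb1 (at most 1).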
